A study of Homo sapiens with 42 samples.

Results

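The 91 genes described here are expressed in opposite ways in 2 models of senescence in human lung fibroblasts: the level fell in one senescent state and rose in the other. They were chosen by differences between the 14 control-shRNA libraries. The CPM of a gene (counts scaled to equal library totals) is its read count over the total count of the library, times 1000000. A member had a mean of at least 5 CPM over all 42 libraries, a difference of mean log2(CPM + 0.5) between 4-hydroxytamoxifen (4OHT) and DMSO beyond 1 in ER:RAS cells, a difference of the opposite sign between bleomycin and DMSO beyond 0.5 in IMR90 cells, and no overlap of the libraries in either comparison. Of 28266 gene symbols, 10663 passed the minimum level, 2965 also passed the 4OHT threshold, 1635 both thresholds, 159 with opposite signs, and 91 without overlap. Of these 91, 77 were lower with 4OHT and higher with bleomycin, and 14 were higher with 4OHT and lower with bleomycin. With the minimum level taken over the 14 control-shRNA libraries alone, a setting chosen after seeing the data, the same rule gave 92 genes, among them all 91. By comparison, 1030 genes passed both thresholds without overlap in the same direction.

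The uneven split of 77 against 14 depends on the scaling. With plain CPM, the median difference between 4OHT and DMSO over the 10663 genes was -0.31 on the log2 scale, and that between bleomycin and DMSO was 0.03. With libraries scaled by TMM factors (trimmed mean of M values), these medians were 0.04 and -0.05. The same rule then gave 73 genes, 42 lower with 4OHT and 31 higher. Of these 73, 54 were among the 91, and the 19 others were all higher with 4OHT. The sign of both differences was the same for all 91 members under both scalings. The edgeR tests below used TMM factors. The members nearest to a threshold on the inside were GINS4, WDR66 and ZNF219, and the nearest genes outside were EDA2R, GPD1L and RHBDL1, with differences of -1.22 and 0.51, -1.01 and 0.76 and -1.01 and 0.94 for the first 3 and -0.998 and 1.36, -1.36 and 0.49 and -1.66 and 0.48 for the others (4OHT, then bleomycin).

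IMR90 is an established strain of fetal lung fibroblasts, and IMR90 ER:RAS carries, from a retroviral construct, a fusion of the oestrogen receptor with oncogenic RAS, which 4OHT switches on. The ER:RAS line was given either 4OHT at 100 nM or DMSO. The parental IMR90 line was given either bleomycin, which breaks DNA, for 24 h at 50 µg/ml, or DMSO. After 7 days in culture, 1 µg/ml doxycycline was added to every group for 72 h to switch on an shRNA, either a control or one of a pair (shRNA 1 and shRNA 2) that target COPB2, a coat subunit of COPI vesicles, and poly(A) RNA was sequenced at day 10. There were 3 libraries for each of the 6 ER:RAS groups and 4 for each of the 6 IMR90 groups. Only ER:RAS cells received 4OHT and only IMR90 cells received bleomycin, so trigger and cell line cannot be told apart, and fewer cells of a kind and less RNA per cell cannot be told apart in these bulk libraries either.

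Total counts were 13148194 to 23597310 per library. COPB2 itself ranged from 220.1 to 604 CPM under the control shRNA (14 libraries) and from 30.7 to 133 CPM under a COPB2 shRNA (28 libraries). Of 8 fibroblast markers, 7 were at or above 5 CPM in every library. Their sum was 13423 to 15026 CPM with 4OHT and 8672 to 21439 with bleomycin, beside 17771 to 28835 with DMSO. Of 5 epithelial markers, 2 were at or above 5 CPM in every library and 2 under 1 CPM in every library, with a sum of 46.99 to 118.5 CPM with 4OHT and 70.4 to 246.5 with bleomycin, beside 79.2 to 181.8 with DMSO. The sum of 3 leukocyte markers moved with the treatments, at 64.2 to 99.8 CPM with 4OHT, 59.5 to 115.7 with bleomycin and 14.01 to 40.1 with DMSO, and that of 3 endothelial markers was 6.68 to 11.4 CPM with 4OHT and 1.19 to 5.33 in all other groups. A pair of muscle markers summed to 10.02 to 40.7 CPM with DMSO, to 0.0574 to 0.441 with 4OHT and to 2.08 to 5.18 with bleomycin. The part of these markers in the results was not tested. Among the bleomycin libraries, replicate 4 had the lowest level of its group for 37, 54 and 30 of the 91 members with the control shRNA, shRNA 1 and shRNA 2, and replicate 2 with shRNA 2 for 39.

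Both triggers end in a stable arrest through the p53 and RB pathways, with secretion of cytokines, growth factors and proteases. Persistent RAS signalling acts through the ERK and PI3K kinase cascades and replication stress, whereas bleomycin acts through double-strand breaks, the ATM kinase and p53. p53 is a transcription factor that binds DNA as a tetramer at pairs of decamers and activates genes of arrest, repair and apoptosis.

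**Figure D1:**
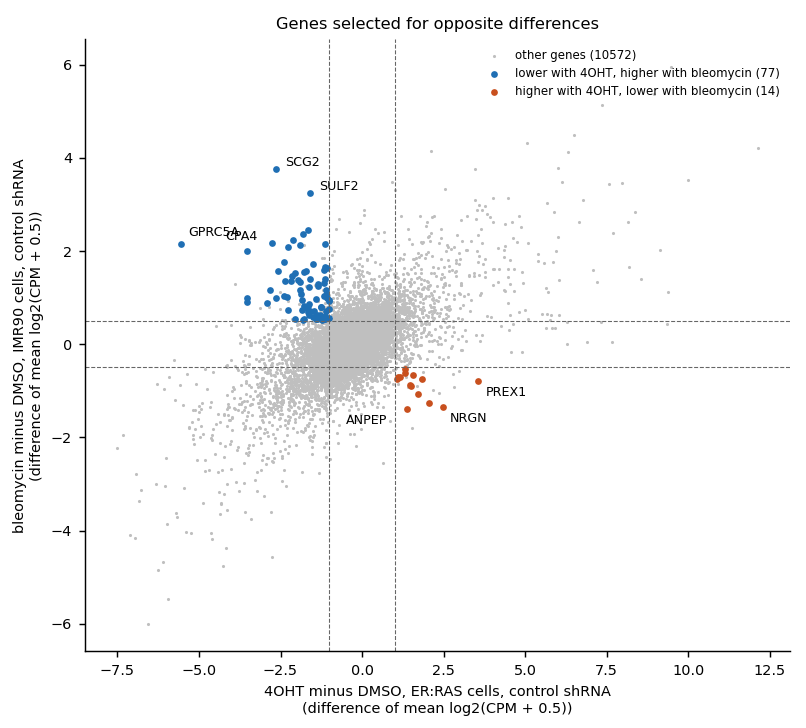
Difference between 4OHT-treated and DMSO-treated ER:RAS cells (horizontal) against the difference between bleomycin-treated and DMSO-treated IMR90 cells (vertical), both as differences of mean log2(CPM + 0.5) in the 14 control-shRNA libraries, for the 10663 genes with a mean of at least 5 CPM. Dashed lines are the thresholds of the rule, blue points the 77 members lower with 4OHT and higher with bleomycin, orange points the 14 members with the opposite pattern, and GPRC5A lies farthest to the left among the blue points.

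Promoter sequence was read for members whose windows hold motifs of factors linked to these pathways. RefSeq promoter windows (GRCh38.p14, 250 bases before to 50 after a start) were found for 70 of the 91 members, as 112 windows, and for 27305 genes in all, as 35116 windows. The stretches below end at the base before the annotated start and are written 5′ to 3′ on the strand of the gene. In PTCHD4 (chr6:48111198-48111237, minus strand) the capitals mark a pair of p53 decamers with no spacer, each matching the p53 consensus. In IGFBP2 (chr2:216659507-216659566, plus strand, the start farthest downstream of its 3 windows) they mark the same arrangement with 1 base off the consensus. In CPA4 (chr7:130293101-130293160, plus strand) they mark AP-1 motifs (TGANTCA) on both sides of a TATA box (TATAAA, found on both strands). In CCN2 (chr6:131951373-131951492, minus strand) they mark a pair of TEAD motifs (GGAATG) and a TATA box.
PTCHD4: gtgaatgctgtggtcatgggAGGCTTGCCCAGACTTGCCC
IGFBP2: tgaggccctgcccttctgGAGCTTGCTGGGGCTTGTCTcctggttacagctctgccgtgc
CPA4: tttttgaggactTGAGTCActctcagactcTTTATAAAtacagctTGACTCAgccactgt
CCN2: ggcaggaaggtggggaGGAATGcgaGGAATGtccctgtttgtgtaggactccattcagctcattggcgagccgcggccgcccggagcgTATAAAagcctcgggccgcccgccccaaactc

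These matches are letters in a window and show no binding. A full p53 element, with up to 13 bases between the decamers, was in 1 of the 112 member windows (0.893%) and in 10 of all 35116 (0.0285%). Without a spacer and with up to 1 base off outside the cores, it was in 2 member windows (1.79%) and 17 of all (0.0484%). The search for p53 elements was chosen after the members were known. The other motifs were searched on both strands, and their shares in member windows lay near those in all windows: 7.14% against 7.71% for AP-1, 16.96% against 14.03% for the TEAD motif, 34.8% against 34.6% for CCAAT, 7.14% against 7.26% for the E-box CACGTG and 0.893% against 1.29% for the CArG box. The TATA box was in 5.36% of member windows and 11.5% of all.

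The question of the next comparison was whether the opposite responses were also seen in the 28 libraries with a COPB2 shRNA, and both responses were tested there with each shRNA. The rule used no difference between these libraries, although its minimum level was a mean over all 42. These cells lack most of their COPB2 transcript, and the labels do not say whether libraries of the same replicate number came from the same cultures as the control libraries. Some levels recurred by replicate number with the control shRNA, shRNA 1 and shRNA 2. Replicate 2 was the lowest each time for TNFSF4 in DMSO-treated ER:RAS cells (5.49, 5.24 and 8.42 CPM). Replicate 4 was so for CPA4 with bleomycin (63.6, 19.01 and 39.8 CPM). These examples were picked after seeing the data, and sharing of replicates was not tested over the members. The knockdown libraries are thus not taken as independent of the control libraries. In what follows, a pair of values in parentheses gives the log2 fold changes with shRNA 1 and shRNA 2, and an adjusted p is from edgeR's quasi-likelihood test with Benjamini-Hochberg adjustment over all genes tested (a call is an adjusted p under 0.05). All 91 members were tested, and their fold changes had the sign of the rule in both models with both shRNAs. A total of 8 members (INPP5D, ADAMTS19, CLCA2, RBM24, VWCE, NALCN, NRGN and CIT) were below 5 CPM on average over the DMSO-treated control-shRNA libraries and passed the minimum only through libraries where they are high, so they had to differ between treatments there. Without these 8, 73 and 73 of 83 members were called with 4OHT, and 62 and 59 with bleomycin (shRNA 1 and shRNA 2). In ER:RAS cells with 4OHT, 66 of the 77 members fell with shRNA 1 and 66 with shRNA 2, where 21.1% and 21.3% of all 14102 genes tested fell. All 14 of the other side rose with either shRNA, against 16.7% and 16.4% of all genes. In IMR90 cells with bleomycin, 63 and 59 of the 77 rose, against 16% and 20.9% of all 14516 genes tested, and 7 and 8 of the 14 fell, against 16.6% and 17.3%. The median log2 fold change of the 77 members with 4OHT was -1.48 with shRNA 1 and -1.53 with shRNA 2, beside -0.08 and -0.04 over all genes. With bleomycin it was 1.00 and 0.99, beside 0.01 and 0.03. For the 14 members the medians were 1.66 and 1.59 with 4OHT, and -0.72 and -0.76 with bleomycin.

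Members called in both models in opposite directions numbered 62 with shRNA 1 and 58 with shRNA 2, where 0.998% and 1.16% of the 13823 genes tested in both models were so called. In all 4 tests, 51 members were called, a count for which no share over all genes is given. The difference between both responses was tested in a fit of the 28 libraries of both lines. With shRNA 1 and shRNA 2 it was called for 75 and 77 of the 77 members, where 11.8% and 12.6% of all 15063 genes were lower with 4OHT than with bleomycin, and for 14 and 13 of the 14, where 6.48% and 5.92% were higher. Of the 91 members, 88 were called with both shRNAs, a count for which no share over all genes is given. Without the 8 members that passed the minimum only through libraries where they are high, the difference was called for 81 and 82 of 83. The other counts of this paragraph include these 8. Libraries of treated and DMSO-treated cells did not overlap in both models for 59 members with shRNA 1 and 55 with shRNA 2, against 2.03% and 1.98% of genes. Without replicate 4 of the IMR90 groups, a setting chosen after seeing the data, 64 and 51 members were called with bleomycin in the direction of the rule, where 22.4% and 27.6% of all 14497 genes were called in either direction.

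**Figure D2:**
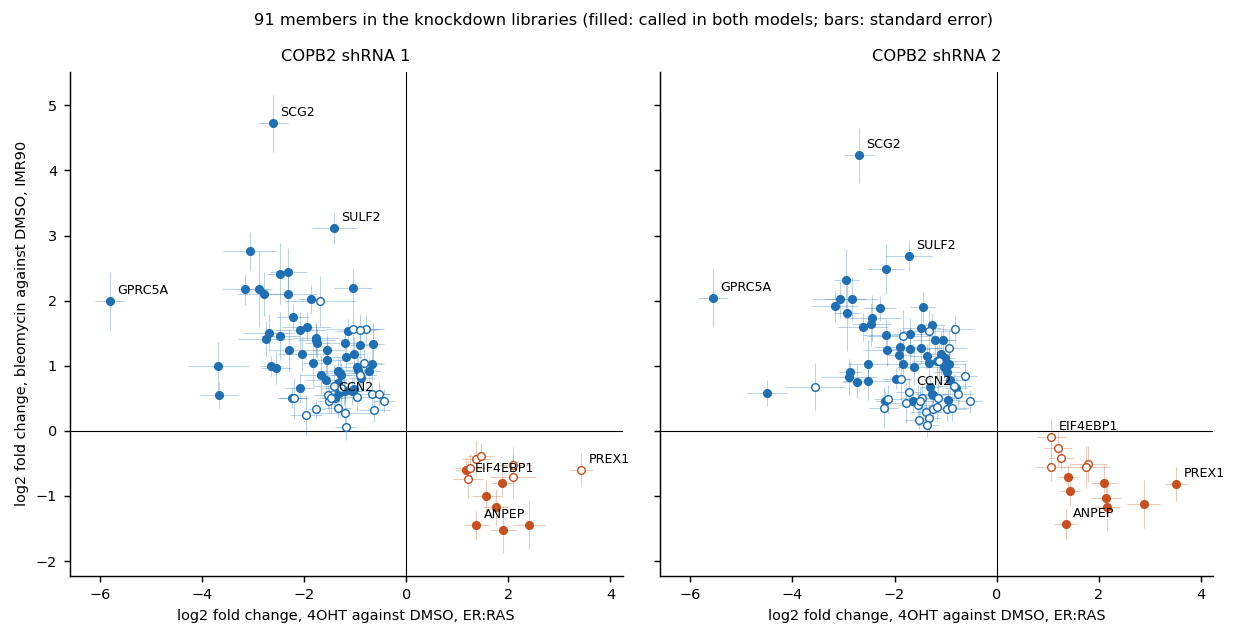
Log2 fold change of 4OHT against DMSO in ER:RAS cells (horizontal) and of bleomycin against DMSO in IMR90 cells (vertical) for the 91 members in the libraries with COPB2 shRNA 1 (left) and shRNA 2 (right), with standard errors as bars. Filled points are the 62 and 58 members called in both models, and all 91 points lie in the upper left or lower right quadrant in both panels.

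Genes that p53 is known to activate form a first group among the members lower with 4OHT and higher with bleomycin. BTG2, SESN1 and POLH are in the list of p53 targets used here, and CLCA2, PTCHD4, FUCA1, SULF2, TRIM22 and APH1B are p53-regulated by general knowledge, a group drawn up after the members were known. Of these 9, 8 fell with 4OHT with each shRNA, 8 and 7 rose with bleomycin, and 5 were called in all 4 tests. CLCA2 is also among the 8 members that passed the minimum only through libraries where they are high, as given above. Over all 77 members of this side, 66 fell with 4OHT with each shRNA and 63 and 59 rose with bleomycin, beside 21.1% and 21.3% (fell) and 16% and 20.9% (rose) of all genes, and nothing particular to a group is read from the counts of this and the groups below. BTG2, an antiproliferative protein that slows entry into S phase, was at 57.7, 64.8 and 49.6 CPM in ER:RAS cells with DMSO and at 25.8, 24.6 and 16.4 with 4OHT (control shRNA). IMR90 cells held 57.4, 41.2, 45.4 and 41.4 CPM with DMSO and 133, 114, 130.3 and 83.7 with bleomycin. The 4 states thus had no overlap within either line, and both DMSO states lay between the senescent ones. In the knockdown libraries the log2 fold change of BTG2 with 4OHT was -1.17 ± 0.31 with shRNA 1 (adjusted p = 0.0121) and -1.37 ± 0.31 with shRNA 2 (adjusted p = 0.00539). With bleomycin it was 1.14 ± 0.19 with shRNA 1 (adjusted p = 0.000209) and 1.15 ± 0.19 with shRNA 2 (adjusted p = 0.000187).

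Members are described here where the naming rule took them (the first 12 of each direction) or, for the others, where they belong to a gene group, chosen after their values were seen. SULF2, a sulfatase that trims heparan sulfate on the cell surface, had the second highest bleomycin difference of all members. Its levels with the control shRNA were 15.99, 13.2 and 10.02 CPM (DMSO) and 3.31, 5.33 and 3.39 (4OHT) in ER:RAS cells. In IMR90 cells they were 14.3, 11.7, 8.88 and 12.1 CPM with DMSO and 115, 106, 125 and 109 with bleomycin, where every treated library stood far above the highest DMSO library. The log2 fold change of SULF2 with bleomycin was 3.11 ± 0.24 with shRNA 1 (adjusted p = 2.05e-07) and 2.69 ± 0.24 with shRNA 2 (adjusted p = 7.31e-07). With 4OHT it was -1.41 ± 0.44 with shRNA 1 (adjusted p = 0.0265) and -1.72 ± 0.45 with shRNA 2 (adjusted p = 0.0106), and the call with shRNA 1 was lost without any single one of 4 libraries (4OHT replicates 2 and 3, DMSO replicates 1 and 2), with an adjusted p of up to 0.0791. CLCA2, a regulator of chloride conductance in epithelia, was at 4.41, 2.05 and 3.48 CPM in DMSO-treated and 0.386, 0.714 and 0.574 in 4OHT-treated ER:RAS cells. It was at 3.14, 3.64, 3.95 and 3.62 CPM in DMSO-treated and 25.8, 10.1, 27.1 and 25.3 in bleomycin-treated IMR90 cells. Its 4OHT levels rest on few reads, with a lowest count of 2. Its log2 fold changes in the knockdown libraries were -3.06 and -3.08 with 4OHT (adjusted p = 0.000846 and 0.000848) and 2.76 and 2.02 with bleomycin (adjusted p = 5.57e-06 and 6.26e-05), for shRNA 1 and shRNA 2.

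SESN1, a sestrin that restrains mTORC1, fell with 4OHT (-1.34 and -1.53, adjusted p = 0.00205 and 0.00095). With bleomycin SESN1 was not called in the knockdown libraries, at 0.35 and 0.17 (adjusted p = 0.0783 and 0.388). POLH, the polymerase that copies past ultraviolet damage, rose with bleomycin (0.92 and 0.85, adjusted p = 0.00186 and 0.00308). With 4OHT POLH was at -0.72 and -0.62 (adjusted p = 0.0276 and 0.0529), called with shRNA 1 alone, but with the replicate number as a block both were called (adjusted p = 0.000158 and 0.000537). PTCHD4, a Patched-like membrane protein whose start carries the p53 decamers shown above, was at 10.6 ± 3.41 CPM (SD, n = 3) in DMSO-treated and 4.52 ± 1.21 in 4OHT-treated ER:RAS cells with the control shRNA. In IMR90 cells it was at 7.91 ± 1.69 CPM (SD, n = 4) with DMSO and 26.6 ± 8.19 with bleomycin. PTCHD4 rose with bleomycin in the knockdown libraries (1.55 and 1.04, adjusted p = 0.000173 and 0.00324). With 4OHT it was at -0.90 and -1.317 (adjusted p = 0.0562 and 0.0108), called with shRNA 2 alone, but with the replicate block both were called (adjusted p = 0.00772 and 0.000789).

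The list of 24 p53 targets holds 21 genes besides the 3 members. Of these 21, 14 rose with bleomycin with shRNA 1 and 15 with shRNA 2, and the median log2 fold change was 0.91 and 0.92. With 4OHT, 4 rose (CDKN1A, GDF15, TNFRSF10B and SUSD6) and 1 fell (XPC) with either shRNA, the 16 others were not called, and the median was -0.14 and -0.21. The difference of both responses was called for 6 of the 21 with shRNA 1 and 8 with shRNA 2, all lower with 4OHT than with bleomycin, beside 11.8% and 12.6% of all genes. So called were also 9 and 6 of the 16 other YAP and TEAD targets, 10 and 9 of the 23 other cell-cycle genes and 12 and 10 of 22 interferon genes. CDKN1A, the cyclin-dependent kinase inhibitor p21, rose in both models: by 2.51 and 2.01 with 4OHT (adjusted p = 0.00015 and 0.000593) and by 2.72 and 2.80 with bleomycin (adjusted p = 1.04e-05 and 7.61e-06). GDF15, a secreted cytokine, rose by 4.16 and 3.82 with 4OHT (adjusted p = 8.01e-07 and 1.27e-06) and by 4.34 and 3.94 with bleomycin (adjusted p = 5.57e-05 and 0.000108). FAS, the death receptor, rose with bleomycin by 1.99 and 1.74 (adjusted p = 8.18e-05 and 0.000237) and was at -1.12 and -0.85 with 4OHT (adjusted p = 0.111 and 0.220). EDA2R, a receptor of the tumour necrosis factor family that p53 activates, lay just outside the 4OHT threshold of the rule, as given above, and was named after its values were seen.

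**Figure D3:**
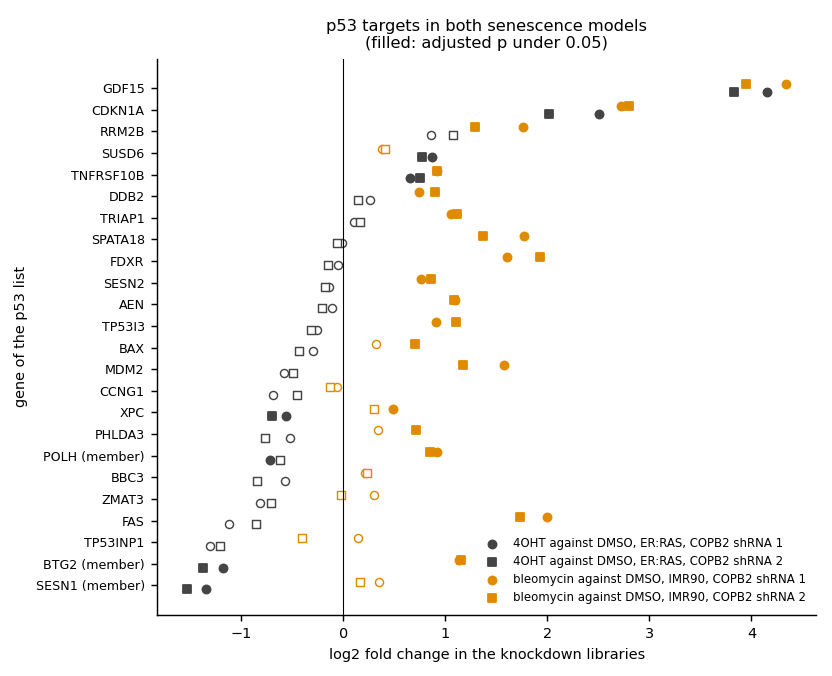
Log2 fold changes of the 24 genes of the p53 list in the libraries with COPB2 shRNA 1 (circles) and shRNA 2 (squares), for 4OHT against DMSO in ER:RAS cells (grey) and bleomycin against DMSO in IMR90 cells (orange). Filled symbols passed an adjusted p of 0.05, and genes are ordered by their mean change with 4OHT, from SESN1 at the bottom, a member, to GDF15 at the top.

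TYMS, thymidylate synthase, which makes the thymidine nucleotide for DNA synthesis, was the only member in the cell-cycle list. It was at 41.7, 30.7 and 45.1 CPM in DMSO-treated and 10.8, 11.3 and 10.9 in 4OHT-treated ER:RAS cells. The levels in IMR90 cells were 21.99, 17.6, 23.4 and 15.9 CPM with DMSO and 61.1, 52.5, 68.6 and 52.2 with bleomycin. All 4 bleomycin libraries thus exceeded all other 10 control-shRNA libraries. TYMS fell with 4OHT, by a log2 fold change of -1.14 ± 0.25 with shRNA 1 (adjusted p = 0.00432) and -1.27 ± 0.25 with shRNA 2 (adjusted p = 0.00237), and rose with bleomycin, by a log2 fold change of 1.53 ± 0.19 with shRNA 1 (adjusted p = 1.63e-05) and 1.62 ± 0.19 with shRNA 2 (adjusted p = 9.75e-06). Of the 23 other cell-cycle genes, 19 and 16 fell and 2 rose with 4OHT, and 17 and 15 fell and 2 and 3 rose with bleomycin. The gene TYMS overlaps ENOSF1 and TYMSOS on the opposite strand, and whether the counting used strand is not given in the sources used here, although the study's methods describe directional libraries and a strand-aware alignment. Of the 91 members, 66 overlap another annotated gene, 29 of them on the same strand and 60 on the opposite one. Overlapping reads of pairs on opposite strands cannot be told apart where strand was not used. Strand does not separate pairs on the same strand. LIG1, the ligase that joins Okazaki fragments, and GINS4, a subunit of the replicative helicase, were also members. LIG1 was not called with 4OHT (-0.62 and -0.76, adjusted p = 0.127 and 0.0674), but was called with the replicate block (adjusted p = 0.00471 and 0.000914). It rose with bleomycin with shRNA 2 alone (0.32 and 0.56, adjusted p = 0.187 and 0.0197), a call lost without replicate 4 of the IMR90 groups (0.64, adjusted p = 0.0577). GINS4 fell with 4OHT (-0.44 and -0.80, adjusted p = 0.145 and 0.0145) and rose with bleomycin (0.46 and 0.65, adjusted p = 0.0541 and 0.00815) with shRNA 2 alone. With the replicate block its 4OHT response was called with both (adjusted p = 0.0214 and 0.000759).

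Secreted signalling proteins and their antagonists made up a larger group, of 12 members, again drawn up after the members were known. All 12 fell with 4OHT with both shRNAs, 10 and 11 rose with bleomycin, and 10 were called in all 4 tests. SCG2, secretogranin II, a granule protein that is cleaved to secretoneurin, had the highest bleomycin difference of all members. It was at 17.3, 14.2 and 20.8 CPM in DMSO-treated and 2.32, 1.87 and 3.04 in 4OHT-treated ER:RAS cells. In the IMR90 libraries the level was 3.59, 5.07, 4.06 and 6.77 CPM with DMSO and 74.3, 37.7, 55.2 and 156 with bleomycin. Replicate 4 was the highest bleomycin library, also with shRNA 1 (59.5, 47.5, 51.03 and 157 CPM) and shRNA 2 (80.97, 38.01, 81.3 and 170.4 CPM). SCG2 fell with 4OHT, by a log2 fold change of -2.60 ± 0.29 with shRNA 1 (adjusted p = 4.46e-05) and -2.70 ± 0.29 with shRNA 2 (adjusted p = 3.56e-05). It rose with bleomycin, by a log2 fold change of 4.72 ± 0.44 with shRNA 1 (adjusted p = 1.4e-06) and 4.23 ± 0.43 with shRNA 2 (adjusted p = 2.62e-06).

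TNFSF4, the OX40 ligand of the tumour necrosis factor family, was at 15.9, 5.49 and 23.9 CPM with DMSO and 0.662, 1.65 and 2.64 with 4OHT in ER:RAS cells. In IMR90 cells it was at 8.92, 8.76, 17.01 and 8.41 CPM with DMSO and 43.2, 47.9, 62.6 and 41.1 with bleomycin. The groups did not overlap, although the DMSO-treated ER:RAS libraries alone varied widely. Its log2 fold change with 4OHT was -2.32 ± 0.55 with shRNA 1 (adjusted p = 0.00652) and -2.43 ± 0.55 with shRNA 2 (adjusted p = 0.00501), and with bleomycin 2.10 ± 0.36 with shRNA 1 (adjusted p = 0.000277) and 1.73 ± 0.35 with shRNA 2 (adjusted p = 0.00116). NPTX1, a secreted neuronal pentraxin, was at 79.1, 62.02 and 50.5 CPM with DMSO and 7.61, 12.1 and 16.7 with 4OHT in ER:RAS cells. IMR90 cells held 26.9, 26.6, 23.7 and 30.6 CPM with DMSO and 199, 63.5, 179.7 and 31.1 with bleomycin, where replicate 4 lay just above the highest DMSO library. NPTX1 fell with 4OHT (-2.48 and -2.94, adjusted p = 1.96e-05 and 7.03e-06) and rose with bleomycin (2.41 and 2.32, adjusted p = 0.000847 and 0.00105).

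SFRP1, a secreted antagonist of WNT ligands, was the most abundant of these 12 with bleomycin. It was at 959, 691 and 832 CPM with DMSO and 122, 204 and 359 with 4OHT in ER:RAS cells. The levels in IMR90 cells were 569, 661, 523 and 685 CPM with DMSO and 1761, 1414, 1777 and 1385 with bleomycin. SFRP1 fell with 4OHT (-1.74 and -1.91, adjusted p = 0.000205 and 0.000116) and rose with bleomycin (1.35 and 1.16, adjusted p = 0.000214 and 0.000675). FST, follistatin, which binds activins, fell with 4OHT (-2.22 and -2.28, adjusted p = 0.00025 and 0.000212) and rose with bleomycin (1.75 and 1.88, adjusted p = 6.27e-06 and 3.02e-06). BDNF, a neurotrophin, fell with 4OHT (-2.05 and -2.15, adjusted p = 0.00516 and 0.00411) and rose with bleomycin (1.18 and 1.25, adjusted p = 0.00209 and 0.00129).

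Of the binding proteins of insulin-like growth factors, IGFBP2 and IGFBP6 were members, whereas IGFBP3, IGFBP4, IGFBP5 and IGFBP7 were not. IGFBP2, whose most downstream start has the near p53 element shown above, was at 631 ± 71.2 CPM (SD, n = 3) in DMSO-treated and 129 ± 65.1 in 4OHT-treated ER:RAS cells with the control shRNA. In the IMR90 line it was at 393 ± 47.6 CPM (SD, n = 4) with DMSO and 826 ± 211 with bleomycin. In the knockdown libraries it fell with 4OHT (-2.29 and -2.46, adjusted p = 0.000756 and 0.000503) and rose with bleomycin (1.24 and 1.63, adjusted p = 0.00856 and 0.00122). Without replicate 4 of the IMR90 groups the bleomycin change of IGFBP2 with shRNA 1 was 1.01 (adjusted p = 0.104). IGFBP6, the only member in the list of the senescence-associated secretory phenotype (SASP), was at 124, 189 and 153 CPM with DMSO and 74.98, 44.5 and 30.4 with 4OHT. In the IMR90 libraries the level was 92.8, 81.2, 80.3 and 101 CPM with DMSO and 189, 185, 140.4 and 112 with bleomycin. IGFBP6 fell with 4OHT with both shRNAs (-1.42 and -1.70, adjusted p = 0.0154 and 0.00623), and rose with bleomycin with shRNA 2 alone (0.69 and 1.26, adjusted p = 0.113 and 0.00631). Of the 30 other SASP genes tested, 24 and 23 rose with 4OHT, and 23 and 24 with bleomycin, and the difference of both responses was called for 4 higher and for 1 and 2 lower with 4OHT. With either shRNA, 0 of these other SASP genes were called in opposite directions in both models.

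CCN2, a matricellular protein and a common target of TGF-beta and of YAP with TEAD, was at 679.9, 510.4 and 744 CPM in DMSO-treated and 152, 141 and 164 in 4OHT-treated ER:RAS cells. In IMR90 cells it was at 550.4, 552, 578 and 575 CPM with DMSO and 666, 1041, 649 and 1011 with bleomycin. CCN2 fell with 4OHT (-1.48 and -1.72, adjusted p = 0.000625 and 0.000242), and was not called with bleomycin, at 0.51 and 0.60 (adjusted p = 0.107 and 0.0516). LTBP1, which holds latent TGF-beta in the matrix, was called in all 4 tests, at -1.28 and -1.31 with 4OHT (adjusted p = 0.000418 and 0.000362) and 0.86 and 0.67 with bleomycin (adjusted p = 0.00176 and 0.00857), where the call with shRNA 2 was lost without replicate 4 of the IMR90 groups (0.56, adjusted p = 0.0607). CRIM1, a membrane protein that binds bone morphogenetic proteins, fell with 4OHT (-1.56 and -1.45, adjusted p = 0.0129 and 0.0185), and rose with bleomycin with shRNA 1 alone (0.79 and 0.50, adjusted p = 0.0217 and 0.119). Of the 16 other YAP and TEAD targets tested, 8 and 9 fell and 2 rose with 4OHT, and 1 and 4 fell and 4 rose with bleomycin. Of the 17 other TGF-beta genes, 6 fell and 7 and 6 rose with 4OHT, and 5 fell and 3 rose with bleomycin, and the difference of both responses was called for 6 and 4 of the 17 higher and 3 lower with 4OHT.

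GPRC5A, an orphan receptor of the class C family that retinoic acid induces, had the largest 4OHT difference of all members. It was at 65.6, 71.8 and 56.1 CPM in DMSO-treated and at 1.16, 0.549 and 1.03 in 4OHT-treated ER:RAS cells with the control shRNA. With shRNA 1 it was at 73.3, 84.7 and 76.4 CPM and 1.30, 1.07 and 1.23, and with shRNA 2 at 71.3, 60.7 and 72.4 and 1.21, 1.62 and 0.934. Every 4OHT library was thus far below every DMSO library. In IMR90 cells GPRC5A was at 72.9, 48.2, 50.5 and 58.5 CPM with DMSO and 202, 453, 207 and 225 with bleomycin. With shRNA 1 the bleomycin libraries were at 169, 456, 236 and 69.97 CPM, of which replicate 4 lay within the range of the DMSO libraries, at 52.4 to 70.2. GPRC5A fell with 4OHT, by a log2 fold change of -5.81 ± 0.29 with shRNA 1 (adjusted p = 1.93e-07) and -5.55 ± 0.29 with shRNA 2 (adjusted p = 2.15e-07), and rose with bleomycin, by a log2 fold change of 1.99 ± 0.44 with shRNA 1 (adjusted p = 0.00235) and 2.04 ± 0.44 with shRNA 2 (adjusted p = 0.00192). The difference of both responses was -7.79 and -7.57 (adjusted p = 2.57e-08 and 2.58e-08).

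**Figure D4:**
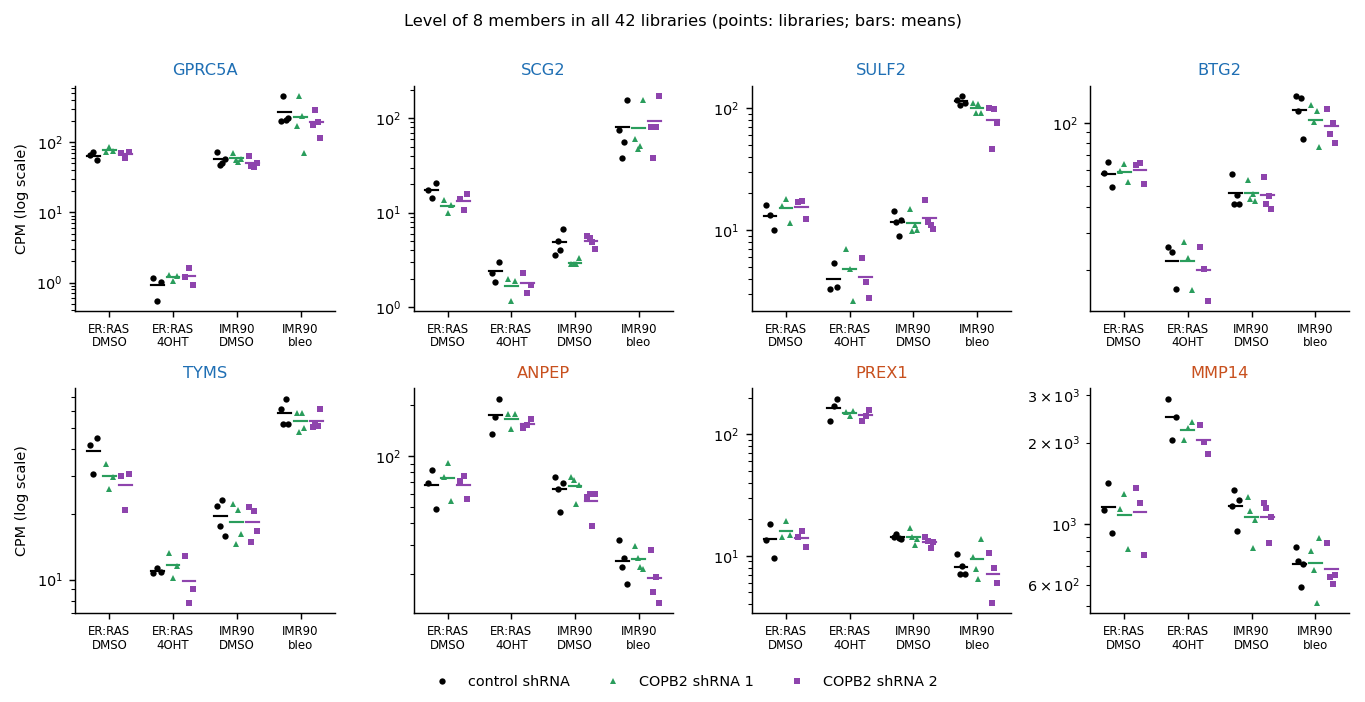
Levels of 8 members in CPM (log axis, with its own range in each panel) in all 42 libraries, by cell line and treatment, with the control shRNA in black, COPB2 shRNA 1 in green and shRNA 2 in purple; points are libraries and bars are group means. Blue titles mark members lower with 4OHT and higher with bleomycin and orange titles the opposite, and in each panel the DMSO groups of both lines lie between both senescent states.

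Membrane proteins, of which 11 were grouped after the members were known, all fell with 4OHT with both shRNAs, and 10 and 7 of them rose with bleomycin. THSD1, a thrombospondin-repeat membrane protein, was at 7.01, 6.65 and 5.03 CPM with DMSO and 1.05, 2.47 and 1.55 with 4OHT. IMR90 cells held 6.90, 5.43, 4.17 and 5.49 CPM with DMSO and 37.8, 29.5, 36.1 and 25.7 with bleomycin. The bleomycin libraries stood well above all DMSO libraries. THSD1 fell with 4OHT (-1.86 and -1.45, adjusted p = 0.00018 and 0.000938) and rose with bleomycin (2.02 and 1.90, adjusted p = 7.55e-06 and 1.17e-05), and it overlaps VPS36 on the same strand. STOM, stomatin, a scaffold of lipid rafts, fell with 4OHT (-2.65 and -2.87, adjusted p = 6.16e-06 and 3.81e-06) and rose with bleomycin (0.99 and 0.90, adjusted p = 0.000139 and 0.000295). PCDHGB4 is a protocadherin of a cluster whose genes share their last exons, so its counts are uncertain. It fell with 4OHT (-1.51 and -1.36, adjusted p = 0.000384 and 0.000783), and was not called with bleomycin (adjusted p = 0.064 and 0.72).

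Enzymes of the extracellular matrix and the secretory route were a further group. CPA4, a secreted metallocarboxypeptidase whose promoter stretch is shown above, was at 47.9, 50.3 and 47.1 CPM with DMSO and 4.52, 3.63 and 3.22 with 4OHT. The levels in IMR90 cells were 48.98, 30.8, 48.1 and 34.98 CPM with DMSO and 205, 224, 233 and 63.6 with bleomycin. Replicate 4 was low in each bleomycin group, and with shRNA 1 (217, 241, 264 and 19.01 CPM) it lay below every DMSO library. CPA4 fell with 4OHT, by a log2 fold change of -2.89 ± 0.25 with shRNA 1 (adjusted p = 7.51e-06) and -2.93 ± 0.25 with shRNA 2 (adjusted p = 7.08e-06), and rose with bleomycin, by a log2 fold change of 2.18 ± 0.59 with shRNA 1 (adjusted p = 0.00871) and 1.80 ± 0.58 with shRNA 2 (adjusted p = 0.0215). Without replicate 4 of the IMR90 groups the bleomycin changes were 2.52 and 2.01 (adjusted p = 0.000131 and 0.000407). The call with shRNA 2 was lost without bleomycin replicate 2 or without DMSO replicate 2 or 4, each left out alone, with an adjusted p of up to 0.0724.

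ADAMTS19, a secreted metalloprotease with thrombospondin repeats, was at 3.35, 1.11 and 3.79 CPM with DMSO and 0.166, 0.330 and 0.402 with 4OHT. In the IMR90 libraries the level was 1.57, 2.31, 3.63 and 3.39 CPM with DMSO and 7.75, 10.8, 13.6 and 24.997 with bleomycin. The groups did not overlap, and 2 libraries had as few as 3 counts. ADAMTS19 fell with 4OHT (-2.78 and -2.84, adjusted p = 0.0018 and 0.00142) and rose with bleomycin (2.11 and 2.02, adjusted p = 0.000192 and 0.000247). TIMP3, an inhibitor of metalloproteases that binds to the matrix, fell with 4OHT (-1.76 and -2.19, adjusted p = 1.39e-05 and 3.28e-06), and rose with bleomycin with shRNA 2 alone (0.33 and 0.46, adjusted p = 0.105 and 0.0249), a call lost without replicate 4 of the IMR90 groups (0.43, adjusted p = 0.0972). P3H2, a prolyl hydroxylase of collagens, fell with 4OHT (-0.91 and -1.04, adjusted p = 0.00306 and 0.00138) and rose with bleomycin (1.319 and 1.40, adjusted p = 0.00016 and 9.59e-05).

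A group of 3 enzymes that build or sulfate glycans (GALNT5, GALNT15 and GAL3ST4), again drawn up after the members were known, were called in all 4 tests. GALNT5, which starts O-linked glycans, was at 124, 62.8 and 159 CPM with DMSO and 12.4, 15.2 and 28.3 with 4OHT. In IMR90 cells it was at 83.1, 162, 184 and 169 CPM with DMSO and 350.3, 308, 622 and 485 with bleomycin. GALNT5 fell with 4OHT (-2.08 and -1.90, adjusted p = 0.00814 and 0.0129) and rose with bleomycin (1.54 and 1.29, adjusted p = 0.000626 and 0.00225). Its 4OHT call with shRNA 2 was lost without 4OHT replicate 1 or without 4OHT replicate 2, with an adjusted p of up to 0.0521. GALNT15 is of the same enzyme family. GALNT15 fell with 4OHT (-2.47 and -2.52, adjusted p = 0.00048 and 0.000434) and rose with bleomycin (1.46 and 1.03, adjusted p = 0.00584 and 0.0341). GAL3ST4, which sulfates galactose, fell with 4OHT (-3.66 and -4.50, adjusted p = 2.22e-05 and 8.01e-06) and rose with bleomycin (0.54 and 0.58, adjusted p = 0.0475 and 0.0326), but without replicate 4 of the IMR90 groups neither bleomycin change passed, at 0.67 and 0.65 (adjusted p = 0.0940 and 0.0885).

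Proteins that act on phosphoinositides or bind to phosphotyrosine were found on both sides. INPP5D (SHIP1), a phosphatase that removes the 5-phosphate of the PI3K product PIP3, was lower with 4OHT and higher with bleomycin. It was at 5.52, 6.76 and 3.68 CPM with DMSO and 0.717, 0.714 and 0.977 with 4OHT in ER:RAS cells. IMR90 cells held 3.70, 1.79, 2.06 and 2.57 CPM with DMSO and 16.8, 14.4, 12.05 and 11.1 with bleomycin. INPP5D fell with 4OHT (-3.17 and -3.16, adjusted p = 0.000235 and 0.000257) and rose with bleomycin (2.18 and 1.92, adjusted p = 6.27e-06 and 1.84e-05). SH2D5, an adaptor with an SH2 domain, was at 9.40, 7.93 and 8.20 CPM with DMSO and 1.05, 1.98 and 1.21 with 4OHT. The levels in IMR90 cells were 8.30, 4.76, 4.33 and 5.96 CPM with DMSO and 38.2, 27.7, 29.2 and 13.98 with bleomycin. SH2D5 fell with 4OHT (-2.31 and -2.17, adjusted p = 0.000572 and 0.000789) and rose with bleomycin (2.44 and 2.49, adjusted p = 0.000136 and 0.000113).

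The 14 members with the opposite pattern, higher with 4OHT and lower with bleomycin, included PREX1, an exchange factor for RAC that PIP3 and G-protein subunits activate. PREX1 was at 13.5, 18.4 and 9.55 CPM with DMSO and 128, 171 and 197 with 4OHT in ER:RAS cells. In the IMR90 libraries the level was 14.3, 15.2, 14.03 and 13.8 CPM with DMSO and 10.3, 7.06, 8.24 and 7.02 with bleomycin. Its 4OHT response was thus far larger than its bleomycin response, which the rule allows. PREX1 rose with 4OHT, by a log2 fold change of 3.43 ± 0.22 with shRNA 1 (adjusted p = 1.1e-06) and 3.52 ± 0.23 with shRNA 2 (adjusted p = 9.6e-07). With bleomycin it was at -0.60 ± 0.25 with shRNA 1 (adjusted p = 0.0808) and -0.82 ± 0.26 with shRNA 2 (adjusted p = 0.0189), and without replicate 4 of the IMR90 groups at -0.85 and -0.72 (adjusted p = 0.0536 and 0.0833).

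PIK3CD, the delta catalytic subunit of PI3K, which makes PIP3, was at 35.3, 40.8 and 26.5 CPM with DMSO and 79.5, 85.7 and 89.7 with 4OHT. In IMR90 cells it was at 51.4, 43.5, 41.1 and 41.99 CPM with DMSO and 34.99, 31.6, 29.6 and 21.2 with bleomycin. PIK3CD rose with 4OHT (1.16 and 1.39, adjusted p = 0.000659 and 0.000213) and fell with bleomycin (-0.61 and -0.71, adjusted p = 0.0166 and 0.00588). Without replicate 4 of the IMR90 groups neither bleomycin call of PIK3CD remained (-0.53 and -0.58, adjusted p = 0.102 and 0.0612). DOCK6, an exchange factor for RAC and CDC42, rose with 4OHT (1.47 and 1.27, adjusted p = 0.000997 and 0.00249), and was not called with bleomycin (-0.38 and -0.42, adjusted p = 0.142 and 0.0975). PLEKHO1, a pleckstrin-domain protein, was at 99.9, 123 and 114 CPM with DMSO and 284, 232 and 193 with 4OHT, and in IMR90 cells at 107, 89.9, 78.3 and 96.8 CPM with DMSO and 57.1, 52.6, 44.8 and 67.2 with bleomycin. PLEKHO1 rose with 4OHT (1.37 and 1.205, adjusted p = 0.00234 and 0.00507), and was not called with bleomycin (-0.43 and -0.27, adjusted p = 0.25 and 0.462). CIT, citron kinase, which acts in cytokinesis, was at 4.99, 3.60 and 3.68 CPM with DMSO and 7.45, 12.7 and 22.9 with 4OHT, and in IMR90 cells at 3.37, 4.41, 4.93 and 4.85 CPM with DMSO and 2.31, 3.12, 2.60 and 2.34 with bleomycin. CIT rose with 4OHT (1.57 and 2.14, adjusted p = 0.00128 and 0.000189) and fell with bleomycin (-1.0002 and -1.03, adjusted p = 0.00425 and 0.00392). Without replicate 4 of the IMR90 groups, the bleomycin change of CIT with shRNA 1 was -0.72 (adjusted p = 0.0648).

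Cell-surface proteolysis gave ANPEP and MMP14. ANPEP, aminopeptidase N (CD13), was at 69.5, 82.8 and 48.8 CPM with DMSO and 136, 170.1 and 219 with 4OHT in ER:RAS cells. IMR90 cells held 74.8, 63.6, 46.4 and 69.7 CPM with DMSO and 31.7, 22.2, 24.9 and 17.5 with bleomycin. The knockdown libraries covered 54.2 to 91.4 CPM with DMSO and 144 to 178 with 4OHT in ER:RAS cells, and 38.8 to 75.2 CPM with DMSO and 13.5 to 29.3 with bleomycin in IMR90 cells, with no overlap in either line. ANPEP rose with 4OHT, by a log2 fold change of 1.37 ± 0.24 with shRNA 1 (adjusted p = 0.0011) and 1.36 ± 0.24 with shRNA 2 (adjusted p = 0.00119), and with bleomycin its log2 fold change was -1.45 ± 0.23 with shRNA 1 (adjusted p = 0.000131) and -1.43 ± 0.23 with shRNA 2 (adjusted p = 0.00015). MMP14, a membrane-bound metalloprotease that activates MMP2, was the most abundant of the 14. It was at 1132, 1415 and 929 CPM with DMSO and 2907, 2040.3 and 2487 with 4OHT, and in IMR90 cells at 1164, 1333, 948 and 1232 CPM with DMSO and 827, 734, 589 and 712 with bleomycin. MMP14 rose with 4OHT (1.24 and 1.06, adjusted p = 0.00608 and 0.0144), and the call with shRNA 2 was lost without 4OHT replicate 1 (adjusted p = 0.0544). With bleomycin it missed the threshold narrowly, at -0.57 and -0.56 (adjusted p = 0.0546 and 0.0507). Without replicate 4 of the IMR90 groups the bleomycin changes of MMP14 were -0.69 and -0.51 (adjusted p = 0.0948 and 0.185). COL5A3, a chain of type V collagen, was at 7.33, 7.32 and 4.57 CPM with DMSO and 15.2, 19.3 and 22.1 with 4OHT, and in IMR90 cells at 6.62, 7.58, 7.26 and 7.53 CPM with DMSO and 4.36, 4.65, 3.11 and 2.80 with bleomycin. It rose with 4OHT (2.10 and 1.79, adjusted p = 0.00117 and 0.00308), and was not called with bleomycin (-0.52 and -0.51, adjusted p = 0.16 and 0.163).

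NRGN, neurogranin, which binds calmodulin, was at 5.47, 6.82 and 5.66 CPM with DMSO and 42.5, 34.9 and 29.7 with 4OHT. The levels in IMR90 cells were 4.99, 3.59, 4.01 and 3.97 CPM with DMSO and 1.29, 2.06, 0.951 and 1.08 with bleomycin. The groups did not overlap, at a level of a few CPM in IMR90 cells. NRGN rose with 4OHT (2.41 and 2.88, adjusted p = 0.000132 and 4.63e-05) and fell with bleomycin (-1.44 and -1.13, adjusted p = 0.0061 and 0.0238). The bleomycin call with shRNA 2 was lost without replicate 1 of either treatment group (adjusted p of up to 0.0555) and without replicate 4 of the IMR90 groups (-1.14, adjusted p = 0.0874). CYB5R2, a cytochrome b5 reductase, was at 4.41, 4.99 and 3.89 CPM with DMSO and 20.7, 21.4 and 17.5 with 4OHT. In the IMR90 libraries the level was 6.96, 6.15, 3.52 and 7.24 CPM with DMSO and 2.15, 3.41, 1.205 and 2.17 with bleomycin. CYB5R2 rose with 4OHT (1.90 and 2.16, adjusted p = 0.000178 and 7.86e-05) and fell with bleomycin (-1.52 and -1.18, adjusted p = 0.00314 and 0.0157). The call with shRNA 2 was lost without replicate 4 of the IMR90 groups (-1.15, adjusted p = 0.0863).

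THEMIS2, a signalling adaptor known from B cells and macrophages, was at 10.1, 11.6 and 8.30 CPM with DMSO and 32.1, 33.5 and 35.7 with 4OHT. In IMR90 cells it was at 13.02, 12.3, 10.6 and 12.3 CPM with DMSO and 5.38, 5.48, 3.61 and 8.28 with bleomycin. THEMIS2 rose with 4OHT (1.75 and 2.10, adjusted p = 0.000282 and 8.98e-05) and fell with bleomycin (-1.18 and -0.80, adjusted p = 0.00451 and 0.0351). With shRNA 2 the bleomycin call was lost without any single one of 5 libraries (bleomycin replicates 1 and 3, DMSO replicates 1, 2 and 4), with an adjusted p of up to 0.0820. BAALC, a lipid-anchored protein known from brain and leukaemia, was at 35.2, 35.7 and 30.9 CPM with DMSO and 82.7, 92.9 and 112 with 4OHT. IMR90 cells held 53.4, 60.1, 42.7 and 68.4 CPM with DMSO and 41.6, 27.4, 36.97 and 19.2 with bleomycin. BAALC rose with 4OHT (1.87 and 1.44, adjusted p = 4.03e-05 and 0.000242) and fell with bleomycin (-0.80 and -0.93, adjusted p = 0.00827 and 0.00285). Without replicate 4 of the IMR90 groups, the bleomycin change of BAALC with shRNA 1 was -0.58 (adjusted p = 0.0788).

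EIF4EBP1, the mTORC1 substrate that holds back cap-dependent translation, was at 46.4, 54.3 and 48.99 CPM with DMSO and 173, 111 and 70.7 with 4OHT. The levels in IMR90 cells were 57.6, 31.6, 29.1 and 31.7 CPM with DMSO and 21.8, 27.8, 17.7 and 21.4 with bleomycin. With shRNA 2 the IMR90 groups overlapped, at 68.95, 48.7, 55.4 and 46.5 CPM with DMSO and 43.2, 74.2, 31.4 and 38.9 with bleomycin. EIF4EBP1 rose with 4OHT (1.21 and 1.07, adjusted p = 0.00649 and 0.0126). With bleomycin it was not called, at -0.74 and -0.10 (adjusted p = 0.0629 and 0.82), and the difference of both responses was called with shRNA 1 alone (1.95 and 1.18, adjusted p = 0.00325 and 0.068). C16orf74 was at 7.54, 9.98 and 4.62 CPM with DMSO and 39.8, 25.8 and 18.2 with 4OHT, and in IMR90 cells at 6.84, 7.33, 6.07 and 8.82 CPM with DMSO and 4.25, 4.12, 3.17 and 4.97 with bleomycin. It rose with 4OHT (2.08 and 1.75, adjusted p = 0.00383 and 0.00982), and was not called with bleomycin (-0.71 and -0.56, adjusted p = 0.114 and 0.194).

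The starting levels of the 91 members were close in both lines. With the control shRNA, the median absolute difference between DMSO-treated ER:RAS and DMSO-treated IMR90 cells was 0.27 on the log2(CPM + 0.5) scale, and 4 members differed by more than 1. Between 4OHT-treated ER:RAS and bleomycin-treated IMR90 cells the median absolute difference was 2.59. The rule chose the members by opposite differences in these same libraries, so this gap follows largely from the choice. Neither median is set beside a value over all genes. With a COPB2 shRNA the DMSO-treated lines were called different by edgeR for 1 member with shRNA 1 (SCG2, log2 fold change 2.15 ± 0.37, adjusted p = 0.0176) and for 0 with shRNA 2, where 0.106% and 0.159% of all genes were called. An unadjusted p of under 0.05 from edgeR was found for 14 and 24 members, beside 1358 and 3301 of all 15063 genes. DESeq2 called 3 and 6, beside 0.398% and 1.02% of all genes. With the replicate number as a block, 11 and 29 members were called, beside 5.88% and 41.8% of all genes. Without DMSO-treated ER:RAS replicate 3 of shRNA 2, 22 were called with shRNA 2, beside 33.6%. The senescent states were called different for 87 and all 91 members, against 44.8% and 39% of all genes. The members not called there with shRNA 1 were NSG1, SDSL, LIG1 and GINS4.

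**Figure D5:**
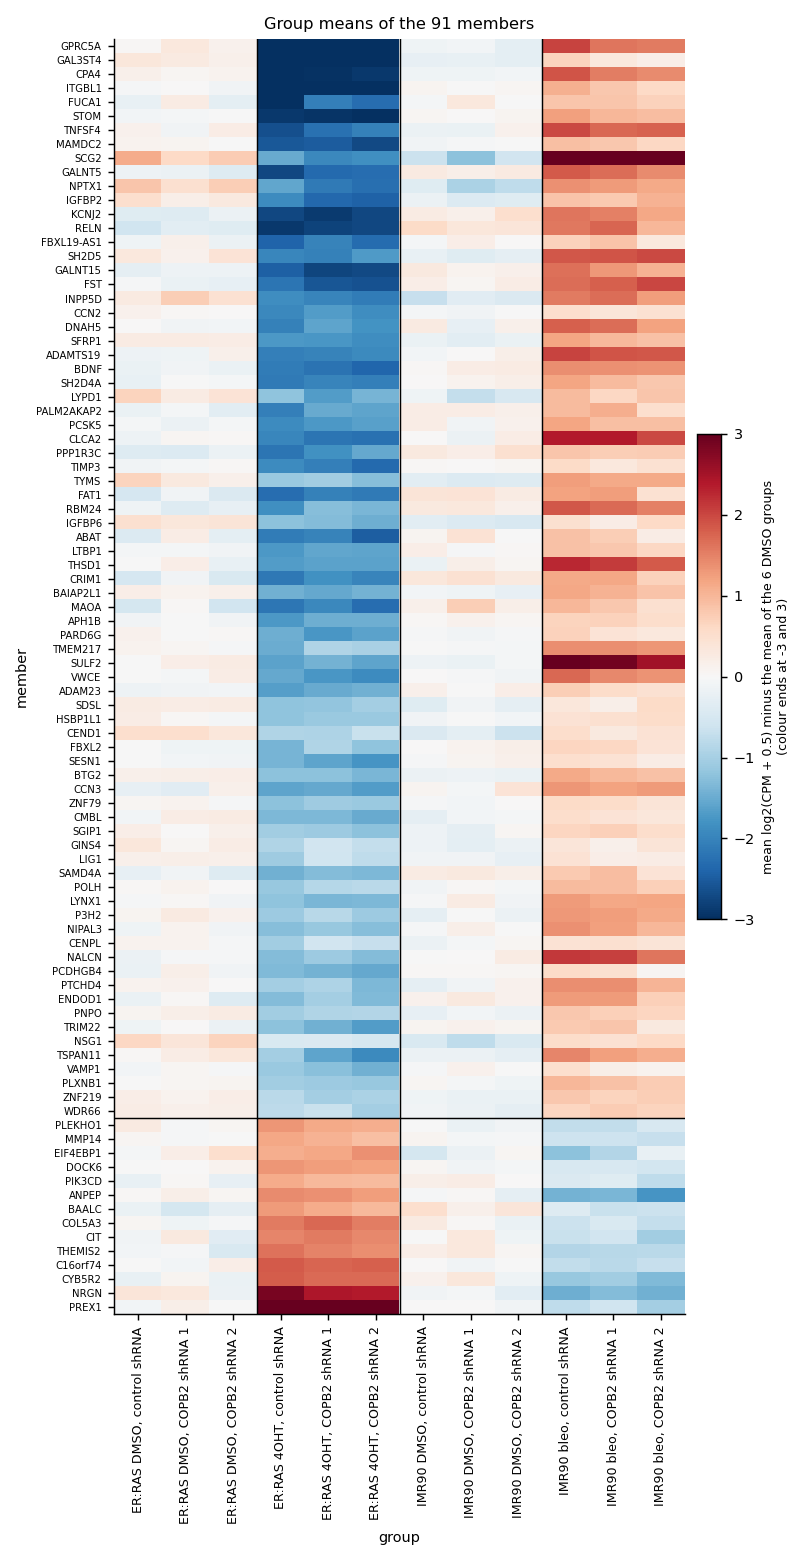
Mean log2(CPM + 0.5) of each of the 91 members (rows) in the 12 groups (columns), minus the mean of the 6 DMSO groups, from blue (lower) to red (higher), with the colour scale ending at -3 and 3. The 77 members above the horizontal line are blue in the 4OHT groups and red in the bleomycin groups, the 14 below it the reverse, and among the DMSO groups SCG2 and NPTX1 deviate most from the DMSO mean.

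Not every member passed the tests in the knockdown libraries. With bleomycin, 13 members were called with neither shRNA: MAOA, ABAT, PARD6G, VAMP1, PCDHGB4, CCN2 and SESN1 among the 77, and COL5A3, C16orf74, PLEKHO1, MMP14, EIF4EBP1 and DOCK6 among the 14. Without replicate 4 of the IMR90 groups, ABAT and PARD6G alone of these were called, with shRNA 1 only (0.88 and 0.79, adjusted p = 0.017 and 0.0181, for ABAT and PARD6G). With 4OHT, 8 members were called with neither: RBM24, DNAH5, TMEM217, ENDOD1, SDSL, FBXL2, CENPL and LIG1. In ER:RAS cells, libraries of the same replicate number deviated together from their group means. With the number as a block, 90 and 91 of the 91 members were called with 4OHT. In that fit, 65.1% and 66.1% of all genes were called in either direction. Of the 8 genes, FBXL2 alone then missed the threshold, with shRNA 1 (adjusted p = 0.0641).

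The lists of other pathways are given by their counts, and the difference between both responses as the number of genes higher or lower with 4OHT than with bleomycin (shRNA 1 and shRNA 2). Among the genes that are no members, 19 of 21 sterol-synthesis genes rose with 4OHT with each shRNA and 18 and 19 of 22 rose with bleomycin, with the difference higher for 12 and 8 of the 22. Of 21 genes of the ERK pathway response, 19 and 17 rose with 4OHT and 16 with bleomycin, and 1 fell in each, with the difference higher for 7 with each shRNA and lower for 1 with shRNA 1. Of 22 interferon genes, 14 fell with 4OHT, and 10 and 11 fell and 1 and 3 rose with bleomycin, with the difference lower for 12 and 10. Of 29 genes of fibrillar and basement membrane matrix, 15 fell and 2 and 1 rose with 4OHT, and 16 and 18 fell and 2 and 1 rose with bleomycin, with the difference lower for 9 and 6 and higher for 6 and 4. Of 20 WNT and BMP genes besides SFRP1, 5 fell and 5 and 6 rose with 4OHT, and 6 and 5 fell and 8 and 11 rose with bleomycin. The difference of both responses was called for 7 of these 20 lower and 2 higher with 4OHT, with each shRNA. Contractile genes under SRF (19 genes, 9 falling with 4OHT, 3 and 5 with bleomycin), Notch targets (10 genes, 3 rising and 3 falling with 4OHT, 2 rising with bleomycin), lysosomal genes (20 genes, 4 rising and 5 falling with 4OHT, 4 and 6 rising and 2 and 3 falling with bleomycin) and genes of glycolysis and hypoxia (23 genes, 19 and 20 rising with 4OHT, and 7 and 15 of 22 with bleomycin) hold no member. For these 4 lists the difference was called for 5 and 5, 5 and 2, 2 and 3, and 13 and 12 genes in either direction.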

How the data were processed

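Poly(A) RNA of 42 libraries was sequenced, and the table deposited by the authors holds read counts per gene symbol, not normalized (28266 symbols). The processing notes of the submitters name hg38, DRAGEN, STAR 2.7.8a and DESeq2 1.32.0, whereas the methods of the study describe an older build and another aligner. The methods also describe directional libraries and a strand-aware alignment. Which aligner made the deposited counts, and whether the counting used strand, is not given in the sources used here. A column was assigned to a sample by name, and 0 columns had no sample.

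The members, gene groups and gene lists were chosen with earlier results of these data known. Named genes were the first 12 members of each direction, in the order of the smaller of both differences, and list genes; others were named after their values were seen. Counts were tested with edgeR 4.0.16 (limma 3.58.1, R 4.3.3): TMM factors, filterByExpr, robust quasi-likelihood F-tests and Benjamini-Hochberg adjustment over all genes, in the 12 ER:RAS and 16 IMR90 knockdown libraries, and in all 28 for comparisons across lines. Standard errors were derived from the F statistic. The test was checked on simulated counts. Alternatives were DESeq2 1.42.0, its size factors, no filter, other sets of libraries, leaving out each library, and a replicate block.

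In ER:RAS cells, samples of the same replicate number deviated together from their group means (18 pairs, correlations of 0.42 to 0.93, median 0.65). Samples of different numbers had correlations of -0.90 to 0.82 (36 pairs, median -0.55). Deviations cancel out within a group of 3 libraries, which pushes these correlations down where same-numbered samples deviate together. They are thus not a separate comparison, although the ranges overlap. The labels do not say that the numbers pair the samples, and the main tests used no pairing. In IMR90 cells, samples of the same number did not deviate together in every pair. The labels do not say that replicates are separate cultures, so p-values measure the spread between these samples. With total counts of 13148194 to 23597310, a floor of 3 counts is 0.228 CPM in the smallest and 0.127 CPM in the largest library, for counting error only.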

Additional observations from a re-analysis of the deposited data

Results flagged for a closer look

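The response of the members differed between the models by a test of the difference itself, for 89 members with COPB2 shRNA 1 and 90 with shRNA 2. These members were chosen for such a difference in the control-shRNA libraries.

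A single library stood apart in 11 of the 144 groups of 4 IMR90 libraries examined over 24 members (Dixon's ratio at the 95% level), and chance gives about 1 in 20. Among bleomycin-treated libraries, SCG2 was at 157 CPM in replicate 4 with shRNA 1, with the other 3 at 47.5 to 59.5. CPA4 was at 63.6 CPM in replicate 4 with the control shRNA, with the others at 205 to 233. GPRC5A was at 453 CPM in replicate 2 with the control shRNA, with the others at 202 to 225. CLCA2 was at 10.1 CPM in the same library, with the others at 25.3 to 27.1. TNFSF4 was at 62.8 CPM in replicate 3 with shRNA 2, with the others at 35.2 to 36.3.

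Among DMSO-treated libraries, SCG2 was at 3.28 CPM in replicate 4 with shRNA 1 (others 2.86 to 2.88), and THSD1 was at 5.98 CPM in replicate 2 with shRNA 1 (others 7.41 to 7.69). With shRNA 2, SULF2 was at 17.8 CPM in replicate 1 (others 10.3 to 11.6) and ANPEP at 38.8 CPM in replicate 3 (others 57.5 to 59.8). With the control shRNA, TNFSF4 was at 17.01 CPM in replicate 3 (others 8.41 to 8.92) and EIF4EBP1 at 57.6 CPM in replicate 1 (others 29.1 to 31.7).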

How the results depend on the processing

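The rule gave 44 members with a bleomycin difference beyond 1 and 48 with a mean of at least 20 CPM, and 88 to 114 when 1 control-shRNA library was left out. Leaving out 1 library at a time, 70 to 83 and 73 to 86 members were called with 4OHT (shRNA 1 and shRNA 2), 59 to 79 and 55 to 68 with bleomycin, 52 to 70 and 47 to 62 in both models, 87 to 90 and 88 to 91 for the difference of the responses, and 85 to 88 and 87 to 91 between the senescent states. Between the DMSO-treated lines it was 0 to 2 and 0 to 22, the 22 without replicate 3 of DMSO-treated ER:RAS cells with shRNA 2 (33.6% of all genes). No share over all genes is given for the other counts of these ranges, so nothing particular to the members is read from them. Between the DMSO-treated lines, 1 and 0 members were called in the main fit. DESeq2 called 3 and 6 there, and the fit with the control-shRNA libraries 2 and 1. The fit of only the libraries compared called 1 with shRNA 2, and the fit without replicate 4 of IMR90 2 with shRNA 2. With the replicate number as a block, 11 and 29 were called between these lines. The block gave 90 and 91 members with 4OHT, 79 and 73 with bleomycin and 91 and 91 for the difference. With 4OHT, 65.1% and 66.1% of all genes were called with the block. No such share is given for the bleomycin and difference counts, so nothing particular to the members is read from them. Pairing by number is a hint from the data and not the design, and in IMR90 cells it did not hold in every pair. For EIF4EBP1 with bleomycin and shRNA 2, the log2 fold change of -0.10, not called, became 0.0476 without bleomycin replicate 3, 0.0078 without bleomycin replicate 4 and 0.052 without DMSO replicate 1, and ranged from -0.57 to 0.05 over all single libraries left out. The cause was not tested.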
